A study of Arabidopsis thaliana with 12 samples.

Results

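The transcripts described here are 36 named Arabidopsis thaliana genes whose array signal was lower in the chloroplast import mutant ppi1 than in the wild type (WT) in each of 6 numbered pairs of arrays. Besides being lower in 6 of 6 pairs, each had a mean difference of -0.25 or lower on the log2 scale. They came from 676 features that the annotation assigns to 1 gene and that were above 0 on at least 1 array, out of 3439 features in all. In all, 44 of the 676 met these limits, and 8 of them were left out by name. The differences given for the 36 are the values that chose them, so they are a description, and no test of them is read as support.

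The ppi1 group held 6 hybridisations of total RNA from the Arabidopsis ppi1 mutant, ecotype Columbia 0. The WT group held 6 hybridisations of total RNA from plants of the same ecotype. The labels give no tissue, plant age, growth condition or array type, and do not say whether the replicates were separate plants, so the spread between arrays may be technical. In such bulk RNA, fewer cells of a type and less RNA per cell cannot be told apart.

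Most chloroplast proteins are encoded in the nucleus, made in the cytosol as precursors with a transit peptide, and imported through the TOC and TIC complexes of the plastid envelope. The gene mutated in ppi1 is TOC33, which encodes a receptor of the outer envelope complex. Transcripts of nuclear genes for photosynthesis are known to respond to the state of the plastid. The genes described here do not form one pathway, and some encode proteins that are not known to enter plastids.

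Neither the mutation nor the tissue could be checked with the genes listed for that purpose. Of 13 listed import genes, TOC33 included, 0 were on any feature. The same count, 0 of 13, was found for markers of senescing leaf, root, seed, flower and mesophyll. Summed deposited intensities lay between 3598 and 3689 on the ppi1 arrays and between 3380 and 3582 on the WT arrays. Levels below are quantile-normalised intensities, which have no absolute unit, and values under a floor of 0.118 were set to that floor. A level of one feature cannot be set against that of another, because features differ in how well they hybridise.

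The mean differences, ppi1 minus WT on the log2 scale, ran from -1.27 for AT4G08940 to -0.26 for AT4G29120, with a median of -0.42. In 2 genes, AT4G08940 and AT4G31530, this put the ppi1 signal at 41.6% and 42.0% of the WT signal. Another 9 genes lay above -1 and down to -0.5, and the remaining 25 lay above -0.5. All 6 ppi1 arrays were below all 6 WT arrays in 13 of the 36 genes. Over all 3365 features that were above 0 on some array, 3.95% had groups separated in this direction, and over the 676 named ones 2.81%. As the genes were selected on this contrast, nothing is read from their count. The groups were separated in 8 of the 11 genes at -0.5 or lower and in 5 of the 25 weaker ones.

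**Figure D1:**
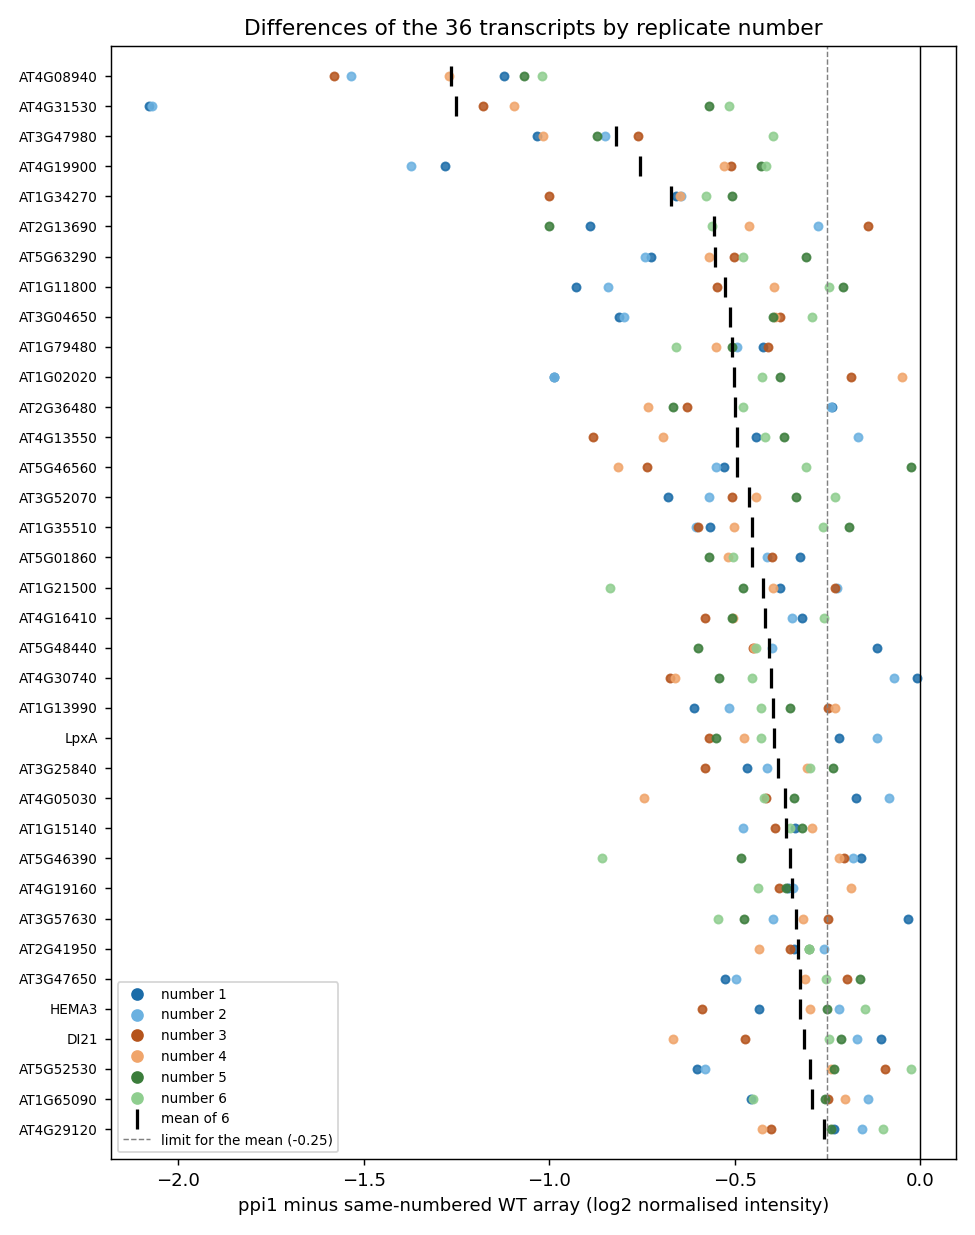
Each row is 1 of the 36 transcripts, and each point is the difference between a ppi1 array and the WT array of the same number, in log2 normalised intensity; the black bar is the mean of 6 and the dashed line the limit of -0.25. Points of neighbouring numbers (same hue) often lie together, as for AT4G31530, where numbers 1 and 2 are at -2.08 and -2.07 and numbers 5 and 6 at -0.57 and -0.52.

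The same limits were met by 8.05% of all 3365 features, and the opposite limits (higher in 6 of 6, mean difference of 0.25 or more) by 6.66%. Among the 676 named features the shares were 6.51% and 6.95%, or 44 lower and 47 higher. Quantile normalisation centres every array, so this balance of lower and higher features holds for that scaling. In limma's moderated test, fitted over all features with Benjamini-Hochberg adjustment, 19 of the 36 were called lower, beside 5.29% of all features and 4.44% of the named ones. With the replicate number as a block, 31 of the 36 were called lower, beside 7.93% of all features. When replicates 1 and 2, 3 and 4, and 5 and 6 were averaged, 0 of the 36 were called in limma, beside 0.119% of all features. In that averaged fit 22 of the 36 had an unadjusted p under 0.05. The share of all features at that unadjusted limit was not counted, so nothing is read from the 22. These counts use the contrast that selected the genes and are given only as a description.

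The gene table used here gives a symbol to 3 of the 36 genes and the locus alone to the other 33. Protein families and roles below are background knowledge and not results.

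Of the genes whose proteins act on nucleic acids or in signalling, 4 are described. AT4G08940, whose predicted protein has the domain of the plant organelle RNA recognition family, had the most negative difference of all. Its ppi1 signal was lowest at 0.244, with a median of 0.310 and a highest value of 0.327. On the WT arrays the lowest, median and highest values were 0.643, 0.694 and 0.879. Every ppi1 array was thus below the lowest WT array, and the ppi1 arrays lay close together. The mean difference was -1.27 ± 0.242 (SD of 6 differences), and no pair was weaker than -1.02.

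AT1G11800, of the endonuclease/exonuclease/phosphatase family, was at 0.399, 0.560 and 1.05 (lowest, median, highest) in ppi1 and at 0.714, 0.823 and 1.23 in WT. Here the groups overlapped, because replicates 5 and 6 were the brightest of both groups, with 1.05 and 1.04 in ppi1 and 1.21 and 1.23 in WT. The mean difference of -0.53 ± 0.303 (SD, n = 6) ran from -0.93 in pair 1 to -0.21 in pair 5. AT5G01860, a predicted zinc finger protein, was at -0.45 ± 0.0913 (SD, n = 6), one of the narrower spreads. AT3G25840, a Prp4-type kinase linked to splicing, was at -0.38 ± 0.128 (SD, n = 6). The groups of both genes overlapped.

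The oxidoreductases and nucleotide-binding proteins counted 6 genes, with a median difference of -0.46 and 2 genes with separated groups. AT4G31530, a predicted NAD(P)-binding Rossmann-fold protein, had 4.31, 8.94 and 9.28 as its lowest, median and highest ppi1 signals. The WT signals were 13.3, 18.7 and 21.0 in the same order. On the ppi1 arrays, replicates 1 and 2 were at 4.31 and 4.54 and the other 4 at 8.94 to 9.28. In WT, replicates 5 and 6 were the dim ones, both at 13.3. The groups did not overlap, but the difference varied between these sets, with -2.08 for pairs 1 and 2, -1.14 for pairs 3 and 4 and -0.54 for pairs 5 and 6. Its mean of -1.25 ± 0.692 (SD, n = 6) therefore carried the widest spread among the 36 genes.

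AT3G04650, a predicted FAD/NAD(P)-binding oxidoreductase, was at 0.407, 0.490 and 0.538 in ppi1 and at 0.623, 0.677 and 0.736 in WT. Its groups did not overlap, and its difference of -0.51 ± 0.231 (SD, n = 6) was also strongest in pairs 1 and 2, at -0.81. AT1G02020, of the nitroreductase family, was at 0.148, 0.333 and 0.449 in ppi1 and at 0.294, 0.411 and 0.527 in WT. Its groups overlapped widely. Its mean of -0.50 ± 0.400 (SD, n = 6) rested mostly on pairs 1 and 2 (-0.99), with -0.12 for pairs 3 and 4. Without ppi1 replicate 1 the group means of AT1G02020 differed by -0.31.

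The other 3 oxidoreductases were weaker and had overlapping groups. They were AT5G48440, a predicted FAD-dependent oxidoreductase, at -0.41, AT1G15140, another FAD/NAD(P)-binding protein, at -0.36, and AT4G29120, of the 6-phosphogluconate dehydrogenase family, at -0.26. AT1G15140 varied little between pairs, with an SD of 0.0658 and a weakest pair of -0.29.

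Sugar transfer and the cell wall were represented by 5 genes, with a median of -0.51 and 3 genes with separated groups. AT4G19900, of the alpha-1,4-glycosyltransferase family, was at 2.23, 3.998 and 4.31 in ppi1 and at 5.14, 5.76 and 6.22 in WT. All ppi1 arrays were below all WT arrays. As for AT4G31530, ppi1 replicates 1 and 2 were the dimmest, at 2.23 and 2.29, and the other 4 lay between 3.82 and 4.31. Its difference was -1.33 in pairs 1 and 2, -0.52 in pairs 3 and 4 and -0.42 in pairs 5 and 6, with a mean of -0.76 ± 0.446 (SD, n = 6).

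AT1G34270, of the exostosin family of glycosyltransferases, was at 0.322, 0.402 and 0.473 in ppi1 and at 0.597, 0.654 and 0.693 in WT. The groups were well apart, and the difference of -0.67 ± 0.171 (SD, n = 6) was at most -0.51 in every pair. AT1G79480, whose protein carries a carbohydrate-binding X8 domain, was at 0.326, 0.367 and 0.410 in ppi1 and at 0.459, 0.543 and 0.577 in WT. It had the most even difference among the 11 strongest genes, -0.51 ± 0.0907 (SD, n = 6), with -0.46, -0.48 and -0.58 in the 3 sets of pairs. AT1G35510, of the O-fucosyltransferase family, was at -0.45 ± 0.181, and AT3G57630, an exostosin-family protein known as an arabinosyltransferase of extensins, at -0.34 ± 0.183 (SD, n = 6 each). Both had overlapping groups.

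Genes of tetrapyrrole synthesis, plastid protein care and lipid metabolism numbered 6, with a median of -0.37 and 2 genes with separated groups. AT5G63290 encodes a radical SAM protein related to the oxygen-independent coproporphyrinogen oxidase of bacteria. It was at 0.874, 1.08 and 1.18 in ppi1 and at 1.32, 1.52 and 1.67 in WT. The groups did not overlap, and the difference was -0.55 ± 0.164 (SD, n = 6). HEMA3, a glutamyl-tRNA reductase gene for the first committed step of tetrapyrrole synthesis, was at 0.870, 0.995 and 1.18 in ppi1 and at 1.01, 1.32 and 1.36 in WT. The HEMA3 groups overlapped, and its difference was -0.32 ± 0.161 (SD, n = 6).

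AT3G47650 encodes the plastid protein BSD2, a chaperone in the assembly of Rubisco. Its signal was 1.28, 1.41 and 1.89 in ppi1 and 1.53, 1.87 and 2.16 in WT. The highest ppi1 value came from replicate 3 alone, the other ppi1 arrays being at 1.28 to 1.46 and thus below every WT array. The mean difference was -0.32 ± 0.154 (SD, n = 6). AT5G46390, of the carboxyl-terminal processing peptidases, a family known for maturing the D1 protein of photosystem II, was at -0.35 ± 0.275 (SD, n = 6), with -0.86 in pair 6 and -0.16 in pair 1.

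AT4G13550 encodes a lipase known to act on galactolipids of the chloroplast under heat. Its signal was at the floor of 0.118 on all 6 ppi1 arrays, against 0.132, 0.159 and 0.217 as the lowest, median and highest WT values. The size of its difference, -0.49, therefore depended on the floor, and was -0.04 with the floor at the 10th percentile. At that higher floor the gene was lower in only 2 of 6 pairs, so its lower signal in every pair also depended on the floor. With 0.1 added instead of the floor the difference was -0.54. On the deposited scale it was -0.34, with 5 of 6 pairs lower. LpxA, an acyltransferase of lipid A-like synthesis that is known from bacteria, was at 0.750, 0.935 and 1.15 in ppi1 and at 1.11, 1.25 and 1.31 in WT. Only ppi1 replicate 2 reached above the lowest WT array, and the difference was -0.39 ± 0.185 (SD, n = 6).

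Among 3 genes of membrane, metal and stress proteins, AT3G47980, a predicted membrane protein of the HPP family, was at 0.118, 0.140 and 0.176 in ppi1 and at 0.227, 0.240 and 0.280 in WT. The groups did not overlap, but 2 ppi1 arrays were at the floor. Its difference was -0.82 ± 0.232 (SD, n = 6) and became -0.41 with the floor at the 10th percentile. AT4G05030, a predicted heavy metal-binding protein, was at -0.36 ± 0.231, and the drought-induced gene DI21 at -0.31 ± 0.214 (SD, n = 6 each). AT4G05030 was also a dim feature, with -0.20 at the higher floor.

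No role is given here for the remaining 12 genes, whose median difference was -0.41. Their groups were separated in 4 genes, AT2G36480 (-0.50), AT3G52070 (-0.46), AT1G21500 (-0.42) and AT2G41950 (-0.33). AT2G13690, the strongest of the 12 at -0.55 ± 0.338 (SD, n = 6), was at 0.118, 0.143 and 0.176 in ppi1 and at 0.174, 0.215 and 0.236 in WT. The groups just overlapped, and 2 ppi1 arrays sat at the floor. With the floor at the 10th percentile its difference was -0.20. AT2G36480 was at 0.448, 0.519 and 0.558 in ppi1 and at 0.627, 0.685 and 0.860 in WT, with no overlap. AT5G46560 was at 0.757, 1.07 and 1.25 in ppi1 and at 1.11, 1.26 and 2.08 in WT, with overlapping groups, and its difference of -0.49 ± 0.290 (SD, n = 6) came close to 0 in pair 5 (-0.02). AT2G41950 had the narrowest spread of all 36 genes, with a difference of -0.33 ± 0.0599 (SD, n = 6) and a weakest pair of -0.26. The groups also overlapped in the other 6, AT4G16410 (-0.42), AT4G30740 (-0.40), AT1G13990 (-0.40), AT4G19160 (-0.34), AT5G52530 (-0.30) and AT1G65090 (-0.29). AT4G30740 was a dim feature and came close to 0 in pairs 1 and 2, at -0.04.

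**Figure D2:**
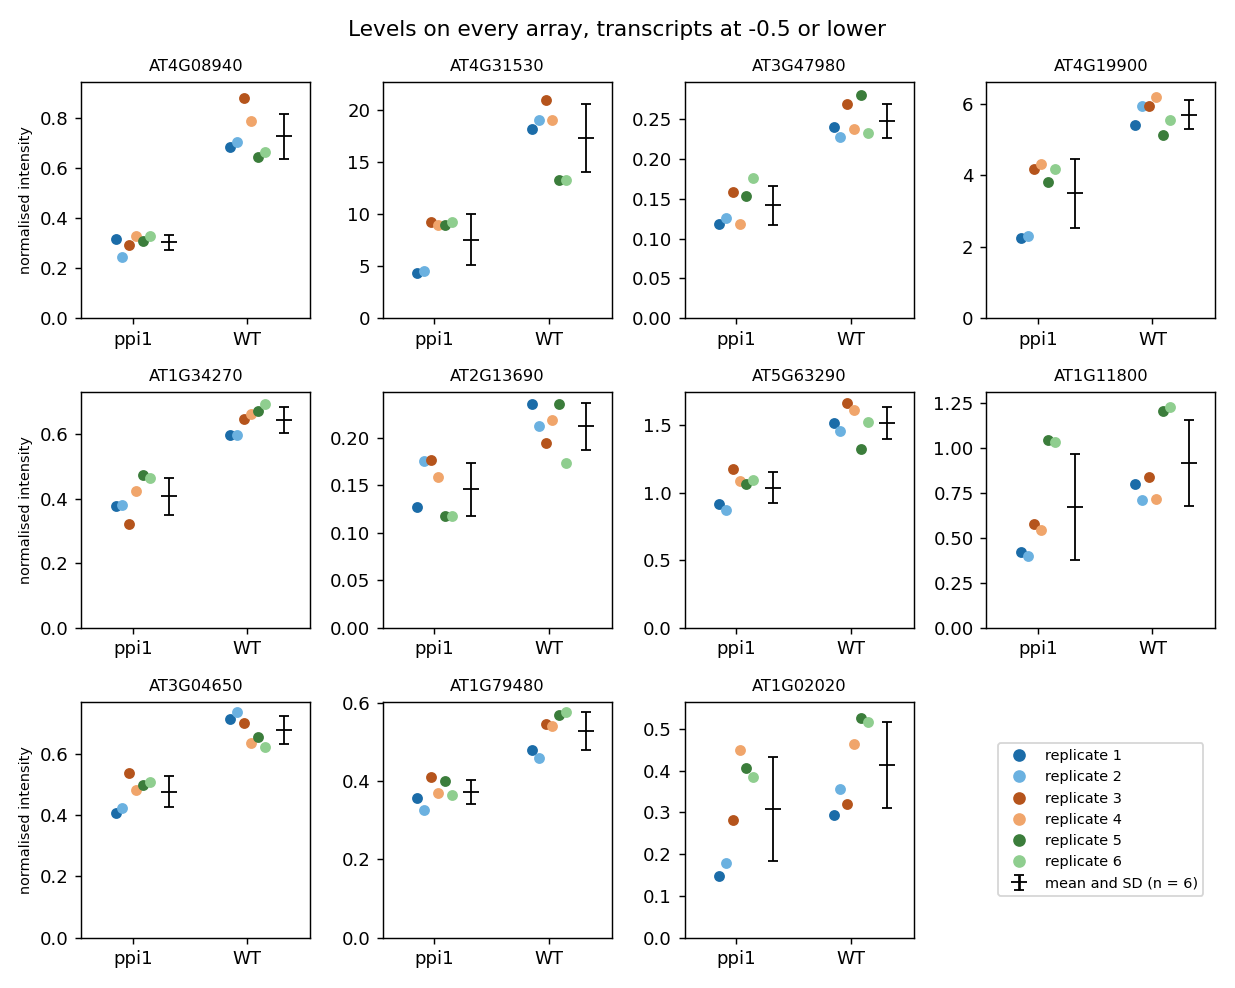
Quantile-normalised intensity on each array for the 11 transcripts with a mean difference of -0.5 or lower, ppi1 left and WT right, with the mean and SD of 6 arrays beside the points; each panel has its own scale from 0. The groups are apart in 8 panels and overlap for AT2G13690, AT1G11800 and AT1G02020.

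How evenly the genes differed between array pairs varied. Over the 36 genes the median difference by replicate number ran only from -0.46 in pair 3 to -0.37 in pair 5. Single genes were less even. Pairs 1 and 2 were the strongest set for 13 genes, pairs 3 and 4 for 14 and pairs 5 and 6 for 9. In 24 of the 36 genes the strongest set was more than 2 times the weakest. Arrays of these sets lay close to each other over all features, with a median absolute log2 difference of 0.110 to 0.122 in ppi1 and 0.0861 to 0.0892 in WT. Other arrays of a group differed by 0.187 to 0.314 in ppi1 and by 0.158 to 0.222 in WT. The labels do not say whether the sets are separate plantings, extractions or hybridisations, and their part in the differences was not tested.

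Of the 36 genes, 5 were also listed on another feature that the annotation assigns to several genes, and the selection had not used those features. AT4G31530 shared one with AT5G02240 and AT2G37660. That feature was at 1.43 ± 0.134 in ppi1 and at 1.06 ± 0.0544 in WT (SD, n = 6 each), a difference of 0.43, and was higher in ppi1 in 6 of 6 pairs. It thus ran opposite to the gene's own feature (-1.25).

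AT1G35510 shared a feature with AT1G14970 and AT2G01480, which was at 1.38 ± 0.0773 in ppi1 and at 1.05 ± 0.0888 in WT (SD, n = 6 each). This too was higher in ppi1 in 6 of 6 pairs, by 0.39, while its own feature was at -0.45. AT2G13690 shared a feature with AT1G63850 and AT5G60050, at 0.36 and higher in 5 of 6 pairs. AT5G01860 shared one with AT5G27880, at 0.23 and higher in 4 of 6 pairs. AT5G46390 shared one with AT4G17740 and AT3G57680, at -0.07 and lower in 5 of 6 pairs.

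In 4 of these 5 cases the shared feature thus had the opposite sign to the gene's own feature. On the median scale the AT5G01860 feature turned to -0.17, and on the deposited scale the AT5G46390 feature turned to 0.10. For comparison, 52.5% of all 855 features with several genes had a positive difference and 10.5% were higher in 6 of 6 pairs. Which of its listed genes a shared feature measures is not known, so these values neither repeat nor contradict those of the gene's own feature.

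**Figure D3:**
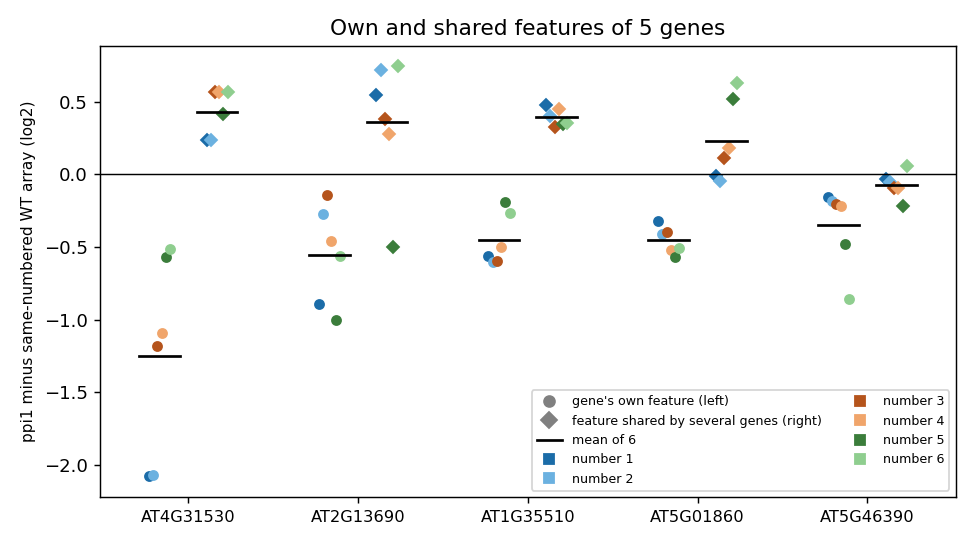
Differences by replicate number (log2) for the 5 genes that have both a feature of their own (circles, left) and a feature shared by several genes (diamonds, right), with the mean of 6 as a bar. The shared features of AT4G31530 and AT1G35510 lie above 0 in all 6 pairs, at means of 0.43 and 0.39, and their own features lie below 0.

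The limit of -0.25 cut through a continuous range. Just inside it were AT5G52530 (-0.30), AT1G65090 (-0.29) and AT4G29120 (-0.26). Just outside, and also lower in 6 of 6 pairs, were AT4G01810 (-0.24), AT3G56250 (-0.22) and LAS (-0.22), a GRAS-family regulator of lateral shoots. The named features left out included 8 that met the limits, from -1.05 for the antenna gene LHB1B2 to -0.33 for AT3G58610. Another 3, PSAN, CCS and AT1G74470, were lower in 5 of 6 pairs.

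By the gene table of assembly TAIR10.1, the 36 genes lay on all 5 chromosomes, with 9, 4, 6, 11 and 6 genes on chromosomes 1 to 5. The 11 genes on chromosome 4 were 30.6% of the 36, where that chromosome held 17.7% of the named features. On chromosome 2 the shares were 11.1% and 18.4%. AT3G47980 lay near GLDH on chromosome 3, with 4 protein-coding genes between them, and GLDH, one of the 8 genes left out by name, also met the limits. None of the others of the 36 lay as close to a named gene that met the limits. The next were AT5G46390 and AT5G46560, with 16 genes between them. Features assigned to several genes were not searched. These positions were not tested.

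The number of genes below 0 changed with the scaling. With the intensities left as deposited, the median difference over all 3365 features was 0.21, against 0.0050 after quantile normalisation. There the median of the 36 genes was -0.24, and 35 of 36 were negative, AT1G65090 being at 0.0052. Only 15 of the 36 were still lower in 6 of 6 pairs on that scale, and AT5G52530 and AT1G65090 were lower in 2 of 6. All 36 lay below the median of all features, and relative to it their median was -0.44, against -0.43 after quantile normalisation. The limits themselves were met on the deposited scale by 10 of the 36, namely AT4G08940 (-1.02), AT4G31530 (-1.37), AT3G47980 (-0.50), AT4G19900 (-0.86), AT1G34270 (-0.41), AT5G63290 (-0.45), AT5G01860 (-0.27), AT1G13990 (-0.29), AT5G46390 (-0.27) and AT3G47650 (-0.28). With each array divided by its median, the 36 genes had a median of -0.51, and 35 met the limits. A difference here is thus relative to the rest of the array. Over all features, limma called 106 higher and 178 lower after quantile normalisation (8.44% in all), 805 higher and 104 lower on the deposited scale, and 80 higher and 336 lower with median scaling.

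**Figure D4:**
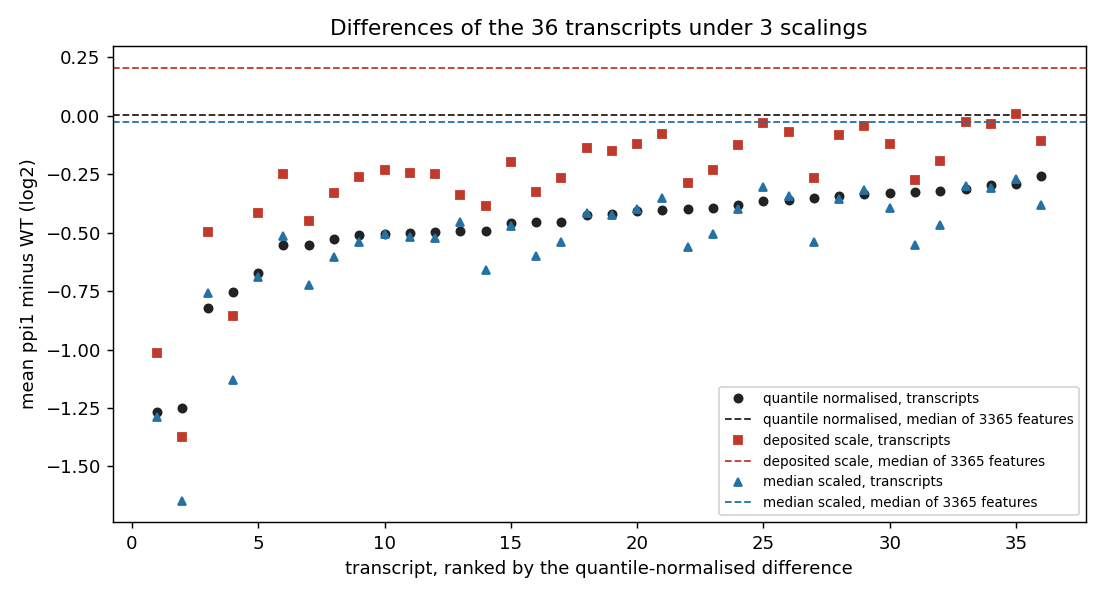
Mean ppi1 minus WT difference (log2) of the 36 transcripts after quantile normalisation (circles), on the deposited scale (squares) and after median scaling (triangles), ranked by the first; dashed lines are the medians of all 3365 features under each scaling. Most squares lie closer to 0 than the circles, and all lie below their own dashed line at 0.21.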

How the data were processed

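Per the labels, total RNA of 6 ppi1 and 6 WT samples was hybridised, and groups and replicate numbers come from the sample titles. The authors deposited linear intensities, with 1 value for each feature on each array. Their background subtraction and scaling, and the array type, are not stated in the labels. Between 149 and 200 features were at exactly 0 on an array.

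The 74 features at 0 on all 12 arrays were dropped, which left 3365. Intensities were quantile-normalised, floored at 0.118 (the 5th percentile of positive values) and log2-transformed. limma 3.58.1 (R 4.3.3, lmFit, eBayes, adjusted p under 0.05) was fitted to all features and tested on simulated data. The simulated arrays were independent, so that test does not cover the closeness of adjacent replicates. Precision is limited by the 12 arrays. Names came from the platform annotation of 2016 and the TAIR10.1 gene table.

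The genes, their grouping and the alternatives were chosen with earlier results of these data known. All 36 genes are named. By the rule, full values are given for those at -0.5 or lower and for at most 2 others of each group, the most negative ones. Full values of AT3G47650 and HEMA3 were added after they were seen. For AT2G41950 only the spread and the weakest pair were added in this way, without its levels. Same-numbered arrays deviated together (correlations 0.379 to 0.590, each ppi1 array closest to its own number). The selection and the differences used the numbers as pairs, which the labels do not state. The main limma fit was not paired, and the replicate block was an alternative to it. Protein and promoter sequences were not used here, so the planned comparison of relatives, protein features and motifs was not made.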

Additional observations from a re-analysis of the deposited data

Results flagged for a closer look

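For the 36 genes, 71 groups of 6 arrays were examined with Dixon's test, and 2 held 1 array that stood apart. Chance gives about 1 group in 20, so 2 of 71 is no more than that rate. The rate assumes independent arrays, while adjacent replicates lay close together. AT3G47650 was at 1.89 in ppi1 replicate 3, against 1.28 to 1.46 on the other ppi1 arrays. AT5G52530 was at 0.566 in ppi1 replicate 6, against 0.411 to 0.462 on the other ppi1 arrays.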

How the results depend on the processing

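Against 284 features called by limma over the whole array, the deposited scale gave 909, the replicate block 517 and the average of adjacent replicates 4, the last with 3 values a group. The count was 223 to 276 when single arrays were left out. Of the 36 genes, 10 met the limits on the deposited scale, and 30 to 36 under the other scalings, floors, the filter on dim features and the blanks kept. Averaging adjacent replicates cannot change this count, which stayed at 36. When each replicate number was left out, 34 to 36 met them. The selection largely fixed this outcome. Every gene had been chosen as lower in all pairs, so mainly a mean close to the limit could fail. Stability is therefore not read from these counts. Moving the limit to -0.20 or -0.30 gave 42 or 33 genes. The median difference of the 36 genes was -0.42. It moved to -0.24 for intensities as deposited, to -0.51 after median scaling and to -0.36 with 0.1 added instead of the floor, and lay between -0.45 and -0.41 without single arrays. AT1G65090 changed sign on the deposited scale, at 0.0052; that scale leaves in the shift of 0.21 over all features. The filter on dim features removed 5 of the 36 genes, AT3G47980, AT2G13690, AT4G13550, AT4G30740 and AT4G05030. A dim signal limits AT4G13550, AT3G47980 and AT2G13690, which had ppi1 arrays at the floor.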
